A study of Mus musculus with 16 samples.

Results

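DNA mismatch repair is represented here by 5 genes, *Msh3*, *Msh6*, *Mlh3*, *Pms1* and *Pms2*, taken by name from the 25054 genes of a count table made from mouse osteosarcomas. All 5 passed the filter on low counts and were among the 15413 genes tested. Osteosarcoma is a cancer of bone-forming cells, and the study asked how the transcriptome of such tumors differs when *Arid1a*, a subunit of the SWI/SNF chromatin remodeling complex, is deleted along with 2 other tumor suppressors. All mice carried OsxCreERT2+/-, a tamoxifen-activated Cre driven by *Osterix* in cells of the osteoblast lineage, together with the floxed alleles p53fl/fl and Rb1fl/fl, and they received tamoxifen at 400 µg/g at 1 month of age. The mice labeled KO carried Arid1afl/fl in addition, and those labeled WT had normal *Arid1a* but had also lost the other 2 genes, so that WT is not normal bone. Tumors came from mice of both sexes older than 6 months. Each of the 8 KO tumors was from a mouse of its own. The 8 WT tumors were from 4 mice, N42 giving 4 of them, N43 giving 2, and N215 and N25 giving 1 each, the last a tumor whose label says lung. Tests over tumors treated tumors of the same mouse as independent, so tests over the 12 mice are given beside them.

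Mismatch repair removes bases that the replication polymerases mispaired or slipped over. A MutS pair that contains either *Msh6* or *Msh3* binds the error, *Msh6* mainly single mispairs and very short loops and *Msh3* mainly longer loops, and both proteins compete for the same partner. A MutL pair then joins, in which *Pms2* supplies the nuclease that nicks the new strand, *Mlh3* contributes a related nuclease used chiefly in meiosis and at repeats, and *Pms1* has a less well defined part. Loss of this pathway is known for unstable microsatellites and many small mutations.

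The RNA of the libraries limits some values and is described first. Total counts on genes ranged from 1109487 to 15059640 in KO and from 7806160 to 16962329 in WT. In the 2 shallowest libraries, the KO tumors Massa and Grilka, 3 counts stood for 6.69 and 4.03 CPM (counts scaled to library size with TMM factors), against 0.146 to 0.340 in WT. Massa had 0 to 10 counts and Grilka 7 to 34 counts on each mismatch repair gene. *Arid1a* itself ranged from 107 to 269.9 CPM among KO tumors (mean 187 ± 57.5 SD, n = 8) and from 125 to 236 CPM among WT tumors (167 ± 31.8), so the groups overlapped, and edgeR's log2 fold change was 0.16 ± 0.22 (SE, adjusted p = 0.715). Whole-gene counts do not show which exons were present, so this value does not check the labels, and KO below means labeled KO. The 3 ribosomal RNA genes of the table summed to between 3516 and 579735 CPM in KO and between 868 and 17217 CPM in WT. Genes of other tissues were highest in 5 tumors, called below the 5 high in muscle, salivary or lung genes: Oregon and Montana had summed skeletal muscle marker levels of 265759 and 221584 CPM, Prince had 11175 CPM of salivary gland genes, and Massa and the WT tumor N25 had 11041 and 26347 CPM of lung genes. They were not confined to these 5, as the pelvis tumor of N43 had 27909 CPM of muscle genes, and Zelda had 1192 CPM of liver, 1444 CPM of erythroid and 505.5 CPM of lymphoid genes, each the highest of the 16 tumors. Summed levels of 10 markers of bone-forming cells ran from 714 CPM in Prince to 83931 CPM in a shoulder tumor of N42. The sum was led by *Col1a1* and *Col1a2*, whose lowest KO levels were 213.7 and 269 CPM. Among the other markers, the lowest KO levels of *Ibsp* and *Phex* were 0.166 and 0.249 CPM, and *Sp7*, the gene of Osterix, had no count in Massa. The sum therefore does not show that each marker was present in each tumor. In bulk RNA, fewer cells of a type and less RNA per cell cannot be told apart, and this applies to each level below.

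The start regions of *Msh6* and *Mlh3* are shown because their slopes with proliferation are set side by side below. Sequences are RefSeq's, on GRCm38.p6, and run from 250 bases before to 50 bases after the annotated start, 5′ to 3′ on the gene's strand. Letters typical of E2F sites, the sites bound by the factors that RB1 restrains, are in capitals. The *Msh6* window is chr17:87974800-87975099 on the plus strand, and the *Mlh3* window is chr12:85270550-85270849 on the minus strand.
Msh6: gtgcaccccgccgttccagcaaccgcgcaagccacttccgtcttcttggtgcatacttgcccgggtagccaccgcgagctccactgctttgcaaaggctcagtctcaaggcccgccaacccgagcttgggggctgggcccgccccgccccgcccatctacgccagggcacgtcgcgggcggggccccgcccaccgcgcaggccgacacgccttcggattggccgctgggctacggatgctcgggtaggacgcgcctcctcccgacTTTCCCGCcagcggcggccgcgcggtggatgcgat
Mlh3: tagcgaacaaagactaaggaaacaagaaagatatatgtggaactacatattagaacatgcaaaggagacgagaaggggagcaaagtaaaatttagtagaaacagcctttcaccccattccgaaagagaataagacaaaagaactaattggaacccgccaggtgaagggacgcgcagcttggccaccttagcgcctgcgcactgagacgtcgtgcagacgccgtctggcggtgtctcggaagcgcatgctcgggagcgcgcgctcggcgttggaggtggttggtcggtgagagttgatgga

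*Msh6* held TTTCCCGC from base 16 after the start. Searched on both strands, this octamer occurred in 1.07% of 32851 promoter windows of the same length, and it was not found in the windows of *Mlh3*, *Pms1* or *Pms2*. The letters were chosen after the windows were read, so this share does not test whether the match is unusual. Other spellings of E2F sites were not searched. *Pms1* and *Pms2*, whose windows lacked the octamer, also had slopes that passed, as given below. A link between motif and slope was not tested. *Msh6* also held 5 copies of the GC-box core GGGCGG, whereas the *Mlh3* window held none. GGGCGG was in 35.7% and CCAAT in 37.4% of all windows, and *Msh6*, *Mlh3*, *Pms1* and *Pms2* each held CCAAT at least once. No match of one motif overlapped a match of another, although the *Msh6* copies of GGGCGG at -112, -107 and -102 share end bases with each other, and a match of letters is a description, not a binding site.

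The genes lie on 5 chromosomes (GRCm38). *Msh3* (ENSMUSG00000014850) is at chr13:92211872-92355003 on the minus strand. *Msh6* (ENSMUSG00000005370, chr17:87975062-87990892, plus strand) overlaps the end of *Fbxo11* by 34 bases. *Mlh3* (ENSMUSG00000021245) is at chr12:85234520-85270599 on the minus strand, with no other gene of the table overlapping it. *Pms1* (ENSMUSG00000026098, chr1:53189187-53297018, minus strand) starts 77 bases from *Ormdl1*, and *Pms2* (ENSMUSG00000079109, chr5:143909964-143933968, plus strand) starts 117 bases from *Aimp2*. *Pms2* also shares 394 exonic bases with the gene model Gm42421, which had 23 counts over all tumors, and 85 with *Rsph10b*. The strand setting of the counting is not given in the sources used here, so reads from exonic stretches that any of the 5 shares with another gene cannot be assigned.

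None of the 5 mismatch repair genes passed the test between KO and WT. edgeR's quasi-likelihood test with Benjamini-Hochberg adjustment over 15413 genes called 0 of 5, against 4.01% of all genes tested (1.86% higher and 2.15% lower in KO), and 1 of 5, *Mlh3*, had an unadjusted p under 0.05, against 23.0% of all genes. DESeq2 also called 0 of 5, where it called 12.5% of the genes it gave an adjusted p, and limma-voom, in which tumors of the same mouse were correlated, called 0 of 5 and 0.11% of all genes. The fitted log2 fold change was above 0 in 4 of 5 genes and their median was 0.23, beside 0.10 over all genes tested. The KO tumors were more spread out in 4 of 5 genes: the coefficients of variation of *Msh3*, *Msh6*, *Pms1* and *Pms2* ran from 47.7% to 83.9% in KO and from 21.5% to 38.4% in WT. *Mlh3* was the exception, with 38.2% in KO and 40.4% in WT. The difference in spread was not tested, and it includes WT tumors of the same mouse and the shallow KO libraries Massa and Grilka.

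**Figure D1:**
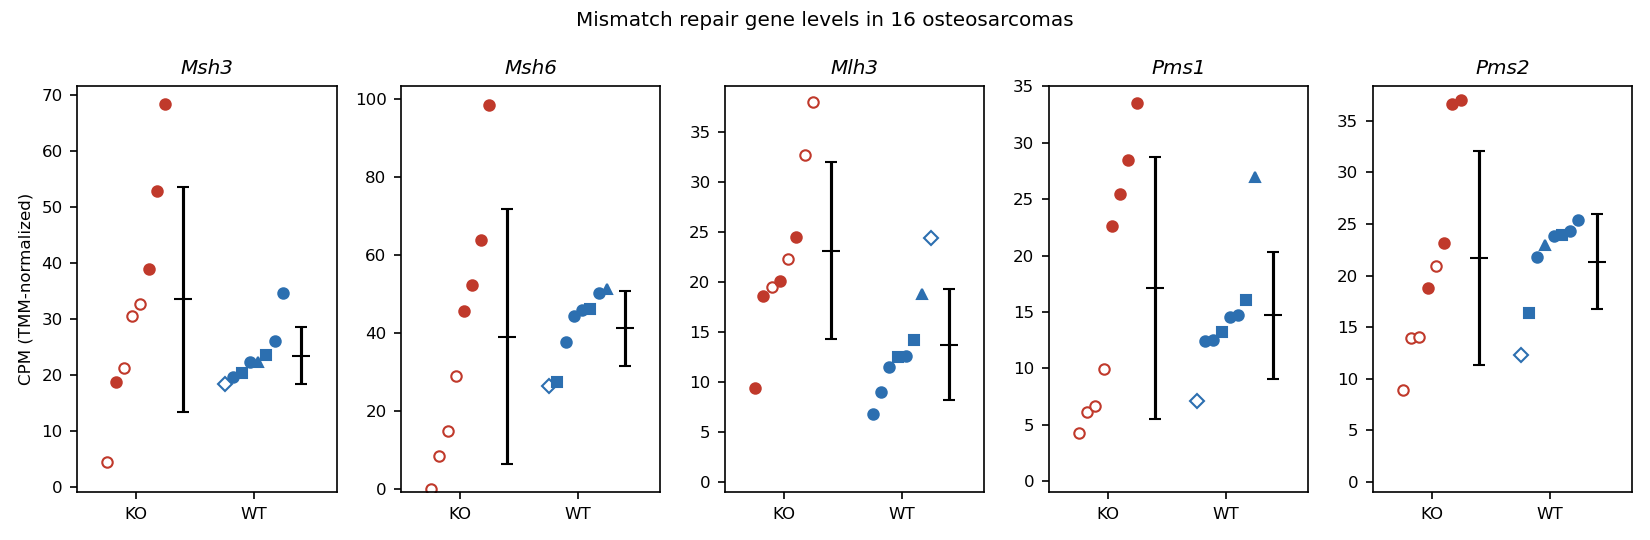
Level of each mismatch repair gene in 16 osteosarcomas, in CPM with TMM normalization. Red points are KO and blue points WT tumors (circles N42, squares N43, triangle N215, diamond N25), open points are the 5 tumors high in muscle, salivary or lung genes, and the black marks are mean ± SD (n = 8). KO tumors lie both above and below the WT range in every gene except *Mlh3*, in which none lies below it.

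*Msh6*, the mispair-binding MutS gene, had the widest range. Its lowest, median and highest levels were 0, 37.3 and 98.4 CPM in KO and 26.4, 45.0 and 51.2 CPM in WT. The KO tumors Medusa (98.4), Ohio (63.7) and Zelda (52.3) lay above every WT tumor, and 3 others, Montana (14.8), Oregon (8.39) and Massa, lay below every one. In Massa the gene had no count, which allows up to 6.69 CPM there. The means were 39.0 ± 32.8 CPM and 41.1 ± 9.69 CPM (SD, n = 8 each), with coefficients of variation of 83.9% and 23.6%. The log2 fold change was -0.05 ± 0.52 (SE), with a 95% interval from -1.15 to 1.05 and an edgeR adjusted p of 0.966, so that the direction could not be told at this precision. An exact two-sided permutation of log2 CPM gave p = 0.317 over tumors and 0.590 over mice. Among all genes tested, the SD of *Msh6* over the 16 tumors lay at the 92.7th percentile, but this rests on Massa, whose log2 value at 0 counts is set by the prior count, and without that library it lay at the 49.5th percentile, beside 49.0 for *Pms1*. Its sign is not stable: the fold change was 0.24 without Montana and Oregon and 0.59 (adjusted p = 0.162) without the 5 tumors high in muscle, salivary or lung genes, an alternative chosen after seeing the data.

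*Msh3*, the loop-binding MutS gene, stood at 4.46, 31.7 and 68.4 CPM (lowest, median, highest) in KO and at 18.5, 22.3 and 34.7 CPM in WT. The 3 highest tumors were KO (Medusa 68.4, Ohio 52.9, Zelda 38.9) and the lowest was Massa, with 2 counts. The remaining 4 KO tumors fell within the WT range. The means of 33.5 ± 20.2 CPM and 23.4 ± 5.14 CPM (SD, n = 8 each) gave a log2 fold change of 0.54 ± 0.35 (SE, 95% interval -0.20 to 1.28, edgeR adjusted p = 0.371). The exact permutation p was 0.678 over tumors and 0.628 over mice. When Medusa and Ohio alone were set against WT, the fold change was 1.33 and passed the threshold (edgeR adjusted p = 0.0231, where 4.45% of all genes passed), the only one of the alternatives tried in which a mismatch repair gene was called between the genotypes. These 2 tumors were named for that alternative with earlier results of these data known, so the value is a description of them.

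*Mlh3*, the MutL gene with the meiotic role, was the one with the smallest p between the groups. It stood at 9.40, 21.2 and 38.0 CPM in KO and at 6.87, 12.6 and 24.4 CPM in WT. Of the 8 KO tumors 7 were above the WT median, 3 (Oregon 38.0, Montana 32.6, Zelda 24.5) above every WT tumor and none below the lowest, so the groups overlapped in a shifted way. The highest WT value, 24.4 CPM, was that of N25. The means were 23.1 ± 8.84 and 13.8 ± 5.56 CPM (SD, n = 8 each). The log2 fold change of 0.76 ± 0.30 (SE, 95% interval 0.12 to 1.40) did not pass over all genes (edgeR adjusted p = 0.148). It was 0.47 (unadjusted p = 0.151, adjusted 0.431) without Oregon and Montana, the muscle-rich pair with the highest levels, and 0.44 (adjusted p = 0.780) without N42. The exact permutation p was 0.0244 over tumors but 0.210 over mice, where the 4 low tumors of N42 (6.87 to 12.6 CPM) count once. Its coefficient of variation was 38.2% in KO and 40.4% in WT.

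*Pms1* had levels of 4.23, 16.3 and 33.6 CPM in KO and 7.10, 13.9 and 27.0 CPM in WT. KO tumors fell into a low set (Prince 4.23, Oregon 6.15, Massa 6.69, Montana 9.95) and a high set (Zelda 22.6, Ohio 25.5, Medusa 28.5, Grilka 33.6) with none between, while 6 of the 8 WT tumors lay in that gap. The value of Grilka rests on 25 counts and that of Massa on 3. The log2 fold change was 0.23 ± 0.42 (SE, 95% interval -0.65 to 1.10, edgeR adjusted p = 0.794; exact permutation p = 0.901 over tumors and 0.984 over mice).

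*Pms2*, the nuclease partner in most mismatch repair, was the steadiest of the 5, with an SD at the 16th percentile of all genes tested. It stood at 8.92, 19.9 and 37.0 CPM in KO and at 12.3, 23.4 and 25.4 CPM in WT. Medusa (37.0) and Ohio (36.6) were above every WT tumor and Massa (4 counts) below, and the other 5 KO tumors overlapped with WT. The 4 tumors of N42 differed by little, from 21.8 to 25.4 CPM. The means were 21.7 ± 10.3 and 21.4 ± 4.59 CPM (SD, n = 8 each), with a log2 fold change of 0.04 ± 0.29 (SE, 95% interval -0.56 to 0.64, edgeR adjusted p = 0.950). The interval is the narrowest of the 5. The exact permutation p was 0.759 over tumors and 0.826 over mice.

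**Figure D2:**
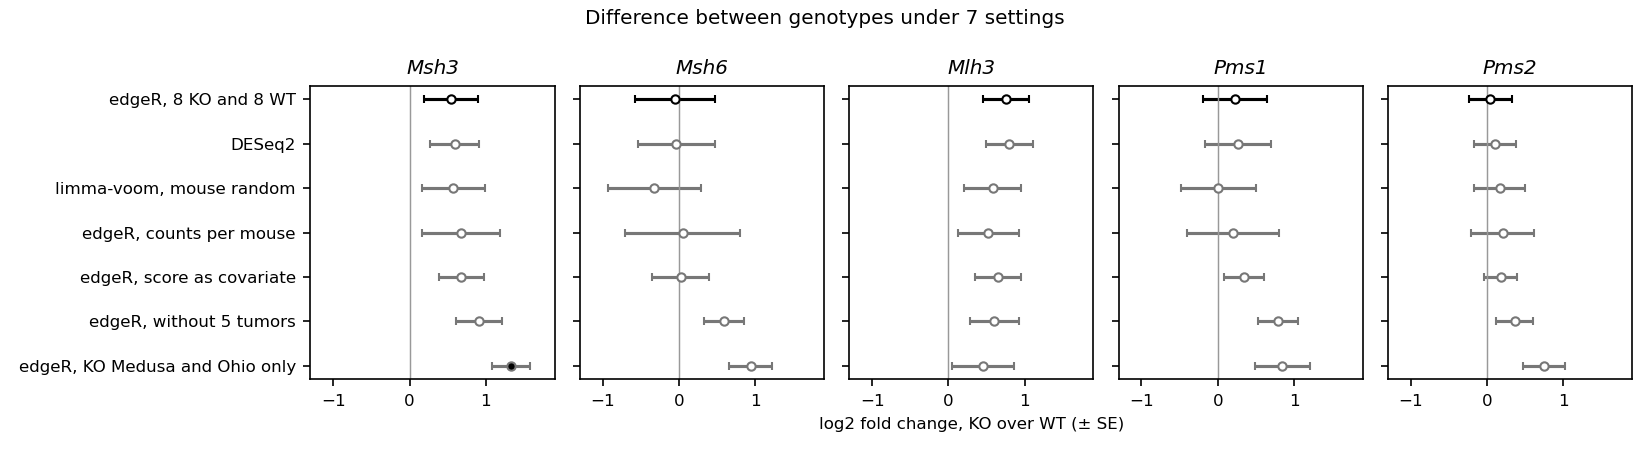
Log2 fold change, KO over WT, of each mismatch repair gene under 7 settings, with SE bars. Black is edgeR with all tumors, grey the alternatives, and a filled point passed an adjusted p of 0.05. The one filled point is *Msh3* with the KO tumors Medusa and Ohio only (1.33), and *Msh6* moves from -0.05 with all tumors to 0.59 without the 5 tumors high in muscle, salivary or lung genes.

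The second comparison was with proliferation, since many repair genes are transcribed as cells enter S phase. A proliferation score was the mean standardized log2 CPM of 18 cell cycle genes, such as *Mki67*, *Top2a* and the *Mcm2* to *Mcm7* helicase genes, none of them a mismatch repair gene, and it is given in SD over the 16 tumors. KO tumors lay at both ends of it: Massa (-1.83), Prince (-1.50), Montana (-1.47) and Oregon (-1.13) were lowest, and Grilka (0.64), Ohio (1.02), Zelda (1.04) and Medusa (1.09) were high, while WT tumors ran from -0.25 to 1.04. The mean was -0.27 ± 1.32 in KO and 0.27 ± 0.49 in WT (SD, n = 8 each), and the exact permutation p of this difference was 0.298 over tumors and 0.465 over mice.

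With genotype in the model, the levels of *Msh6*, *Pms1* and *Pms2* rose with the score. These 3 of 5 genes passed edgeR's test of the slope, against 9.04% of all genes tested called with a positive slope, 8.15% with a negative one and 17.2% in either direction. The slope was 0.86 ± 0.20 log2 units per SD of the score for *Msh6* (SE, adjusted p = 0.00950), 0.79 ± 0.15 for *Pms1* (adjusted p = 0.00227) and 0.43 ± 0.12 for *Pms2* (adjusted p = 0.0189). *Msh3* had a slope of 0.45 ± 0.16, as large as that of *Pms2*, that missed the threshold (adjusted p = 0.0558), and *Mlh3* was the exception, with -0.18 ± 0.16 (adjusted p = 0.423). In the 4 lowest-scoring KO tumors, the median level was 11.6 CPM for *Msh6* and 6.42 CPM for *Pms1*, against 58.0 and 27.0 CPM in the 4 other KO tumors. For *Mlh3* the medians were 27.5 and 19.4 CPM, in the opposite order.

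**Figure D3:**
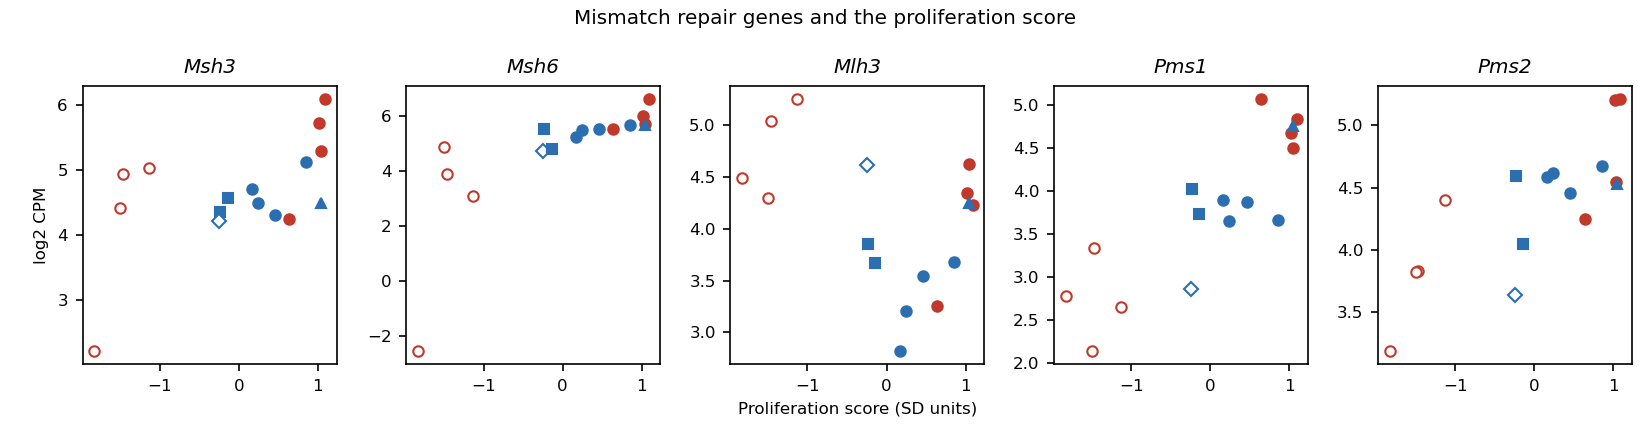
Log2 CPM of each mismatch repair gene against the proliferation score (SD units) in 16 tumors, with the colors and marks of the plot of levels. The 4 KO tumors with the lowest scores, all open points, lie apart on the left from -1.83 to -1.13. All 4 are at or below 9.95 CPM of *Pms1*, while Prince in *Msh6* lies among the other tumors. In *Pms2* and *Msh3* only Massa lies below all the others, whose lowest levels are 12.3 and 18.5 CPM.

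The calls of these slopes rest on those 4 tumors. Without them, edgeR called 0 of 5 slopes (positive calls were 0.508% of all genes), and 1 of 5, *Msh6*, had an unadjusted p under 0.05 (10.7% of all genes). With the score kept in its unit over all 16 tumors, the slopes were then 0.62 ± 0.29 for *Msh6*, 0.55 ± 0.32 for *Pms1*, 0.49 ± 0.31 for *Pms2*, 0.55 ± 0.35 for *Msh3* and 0.05 ± 0.40 for *Mlh3*, so that those of *Pms2* and *Msh3* were no smaller than with all tumors, those of *Msh6* and *Pms1* were, and every SE was larger. With counts summed per mouse, the same 3 genes passed, against 5.99% of all genes called positive. Without Montana and Oregon, *Msh3* passed and *Msh6* did not (0.59 and 0.70 per SD of the remaining scores, edgeR adjusted p = 0.0381 and 0.0543), against 4.68% of all genes. *Pms2* missed the threshold without Medusa (0.39, edgeR adjusted p = 0.0574) or without Ohio (0.39, edgeR adjusted p = 0.0577), and *Msh3* passed it without Grilka (0.52, edgeR adjusted p = 0.0306) or without N215 (0.48, edgeR adjusted p = 0.0449). The 5 tumors with the lowest scores are also the 5 high in muscle, salivary or lung genes. *Pms1* was below the other 11 tumors in 5 of these 5 (4.23 to 9.95 against 12.5 to 33.6 CPM), *Msh6* and *Pms2* in 4 of 5, and *Msh3* in 2 of 5. *Mlh3* went the other way, with 19.5 to 38.0 CPM (median 24.4) against 6.87 to 24.5 CPM (median 12.6). N25 alone showed the same pattern within WT, as it was the lowest of 8 in *Msh3*, *Msh6*, *Pms1* and *Pms2* and the highest in *Mlh3*. The part of other tissue in these levels was not tested, and it cannot be told apart from a low score in these tumors. Without the 5 tumors, the fold changes between KO and WT were 0.91 for *Msh3*, 0.59 for *Msh6*, 0.60 for *Mlh3*, 0.79 for *Pms1* and 0.36 for *Pms2*. None of the 5 passed edgeR's test there (adjusted p from 0.0798 to 0.365), where 6.91% of all genes did. Of the 5, 3 had an unadjusted p under 0.05 in edgeR's test, against 4604 of the 17295 genes tested in that setting. With Zelda left out as well, 0 of 5 passed (fold changes from 0.40 to 0.95, edgeR adjusted p from 0.0716 to 0.478), where 11.2% of all genes did.

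The balance between genes that share a partner does not depend on how libraries were scaled to each other. The log2 ratio of *Msh6* to *Msh3*, in counts per exonic kilobase with 0.5 added, was 1.07 ± 1.30 in KO and 2.17 ± 0.39 in WT (SD, n = 8 each). It was between 1.59 and 2.59 in all 8 WT tumors, and 2 KO tumors, Oregon (-0.57) and Montana (0.33), lay below all of them. Massa cannot be placed, since its value of -0.95 comes from 0 counts of *Msh6* and 2 of *Msh3* and is set by the 0.5 added, and with 3 counts of *Msh6* it would be 1.86, within the WT range. The difference was -1.10, with an exact two-sided permutation p of 0.0368 over tumors, or 0.110 adjusted over the 3 ratios tested, and of 0.111 (0.333 adjusted) over mice. The adjusted exact permutation p came under the threshold in 2 alternatives: without Grilka, the KO tumor with the highest ratio (2.62), the difference was -1.32 (0.00979), and without Massa and Grilka it was -1.02 (0.0210). It was smaller without Massa (-0.81, adjusted exact permutation p = 0.188) and without Montana and Oregon (-0.70, 0.352), and the adjusted value was 0.479 without N42. *Pms2* over *Pms1* was 0.45 ± 0.84 in KO and 0.48 ± 0.40 in WT, a difference of -0.03 (exact permutation p = 0.920). Prince (1.60) and Oregon (1.64) were above the WT range of -0.34 to 0.92, and Grilka (-0.92) was below it. *Pms2* over *Mlh3* was -0.23 ± 0.96 in KO and 0.59 ± 0.84 in WT, a difference of -0.83 (exact permutation p = 0.0900, adjusted 0.135). It was lowest in Massa (-1.33), Montana (-1.31), N25 (-1.09) and Oregon (-0.96), 4 of the 5 tumors high in muscle, salivary or lung genes, and over mice the difference was -0.41 (exact permutation p = 0.495).

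**Figure D4:**
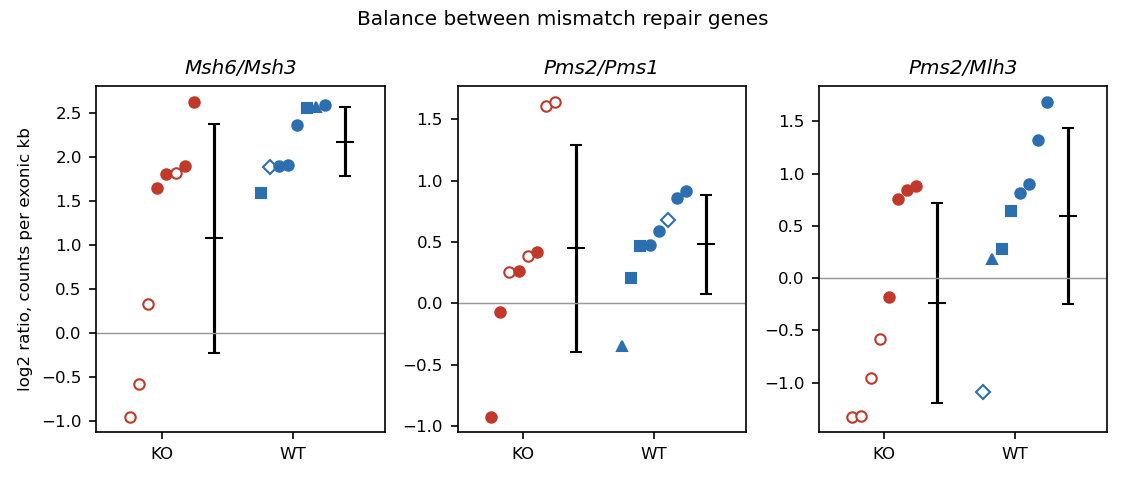
Log2 ratio of 3 pairs of mismatch repair genes in each tumor, in counts per exonic kilobase, with the colors and marks of the plot of levels and mean ± SD (n = 8). The 8 WT tumors lie between 1.59 and 2.59 for *Msh6* over *Msh3*, with Oregon and Montana below them, and the lowest point, Massa, is set by the 0.5 added to 0 counts of *Msh6*.

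Compared per exonic kilobase over the 12 mice, *Msh6* had the highest level, with a median of 8.39 CPM per kilobase, followed by *Mlh3* (2.46), *Pms2* (2.32), *Msh3* (1.95) and *Pms1* (1.68). *Msh6* exceeded *Mlh3* in 9 of 12 mice, with an exact sign-flip permutation p of 0.0630 (0.252 adjusted over 4 neighboring pairs), and the remaining neighbors gave adjusted values of 0.603 to 0.710. No neighbors in the order therefore passed the adjusted threshold over the 12 mice. The test of *Msh6* over *Mlh3* includes Massa, which had 0 counts of *Msh6* and 10 of *Mlh3*. The log2 ratio of Massa there depends on how 0 counts are treated. This pair was not tested without Massa, so no conclusion is drawn on whether *Msh6* and *Mlh3* differed. The order of the medians changed with the length used, except that *Msh6* stayed first. Per kilobase of the longest coding transcript it was *Msh6* (8.58), *Msh3* (5.55), *Pms1* (4.14), *Pms2* (3.44) and *Mlh3* (3.41). The annotated exons of *Msh3* and *Pms1* (11254 and 7542 bases) are far longer than their longest coding transcripts (3946 and 3054 bases). By this length *Msh6* was not separated from *Msh3* (mean log2 ratio -0.04, exact sign-flip permutation p = 0.913, 0.997 adjusted), a test that also includes Massa.

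The genes varied together in part. Over the 16 tumors, Pearson's r of log2 CPM was 0.80 between *Pms2* and *Msh3*, 0.78 between *Msh6* and *Msh3*, 0.74 between *Pms2* and *Msh6* and 0.68 between *Pms2* and *Pms1*. *Mlh3* had r between -0.36 and 0.09 with the others. These are descriptions, since the tumors share depth, tissue content and, in WT, mice. Each r of *Msh6*, here and below, also leans on Massa, whose log2 value at 0 counts is set by the prior count. The SD of *Msh6* in log2 CPM was 2.11 over the 16 tumors and 0.860 without Massa, and r without Massa was not computed. The tested genes most alike in pattern were *Rtel1* (r = 0.95), *Mre11a* (0.95) and the gene model Gm6611 (0.93) for *Msh3*, and *Mgme1* (0.98), *Umps* (0.97) and *Donson* (0.97) for *Msh6*. For *Pms1* they were 2 genes of the replicative helicase, *Mcm4* (0.94) and *Mcm6* (0.91), and the ligase gene *Lig1* (0.92). *Ipo9* (0.91), E430024I08Rik (0.90) and Gm28187 (0.90) were nearest to *Pms2*, and *Josd2*, *Otub2* and *Afg1l* (0.88 each) to *Mlh3*. Both *Mcm* genes belong to the proliferation score.

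Of the genes that start beside them, *Ormdl1*, which regulates sphingolipid synthesis, had r = 0.45 with *Pms1* over 16 tumors and a log2 fold change between KO and WT of -0.95 ± 0.47 (SE, edgeR adjusted p = 0.235). *Aimp2*, a scaffold of the tRNA synthetase complex, had r = 0.29 with *Pms2* and 1.27 ± 0.58 (adjusted p = 0.203). The partly overlapping genes *Fbxo11* and *Rsph10b* had fold changes of -0.41 ± 0.19 (adjusted p = 0.210) and -0.10 ± 0.81 (adjusted p = 0.960).

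The later steps of the pathway, excision, single-strand protection, resynthesis and ligation, were covered by 19 other genes, all tested. Between KO and WT, edgeR called 0 of 19, against 4.01% of all genes tested. None of the 19 had an unadjusted p under 0.05, against 23.0% of all genes. DESeq2 and limma-voom called none either, where they called 12.5% of the genes given an adjusted p and 0.11% of all genes. The median log2 fold change was 0.10, the same as over all genes tested, with 13 genes above 0 and 6 below. The smallest p-values were those of *Lig1*, which seals the repaired strand (0.86 ± 0.50 SE, adjusted p = 0.313), *Pold2*, a polymerase delta subunit (0.51 ± 0.30, adjusted p = 0.325), and *Rfc1*, the large subunit of the clamp loader (0.45 ± 0.33, adjusted p = 0.437). Many of these 19 genes also serve DNA replication, and the proliferation score includes replication genes such as *Mcm2* to *Mcm7*. A rise with the score was therefore likely in advance and is not particular to mismatch repair. Along the proliferation score, 13 of 19 rose and none fell, against 9.04% and 8.15% of all genes, and the median slope was 0.56. With counts summed per mouse 10 of 19 rose, against 5.99% of all genes. *Exo1*, the exonuclease that removes the stretch with the error, had the steepest slope of the 19 with 2.59 ± 0.27 per SD (adjusted p = 1.16e-05), ahead of *Pold1* with 1.30 ± 0.33 (adjusted p = 0.0133) and *Lig1* with 1.06 ± 0.14 (adjusted p = 0.000124). *Pold2*, *Pold4*, *Rpa1* and *Hmgb1* had slopes between -0.15 and 0.07 that did not pass. Without the 4 KO tumors of lowest score, 1 of 19, *Exo1*, still passed, with a slope of 2.19 in the unit of all 16 scores, and without N215 the slope of *Pold1* was 0.85. Between KO and WT, *Lig1* and *Rfc1* passed without the 5 tumors high in muscle, salivary or lung genes (6.91% of all genes) and with Medusa and Ohio only (4.45%). Both passed with *Rfc5* when Zelda was left out along with the 5 (11.2%), *Lig1* passed with the proliferation score as covariate (6.38%), and *Pold1* passed without N215 (5.83%).

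**Figure D5:**
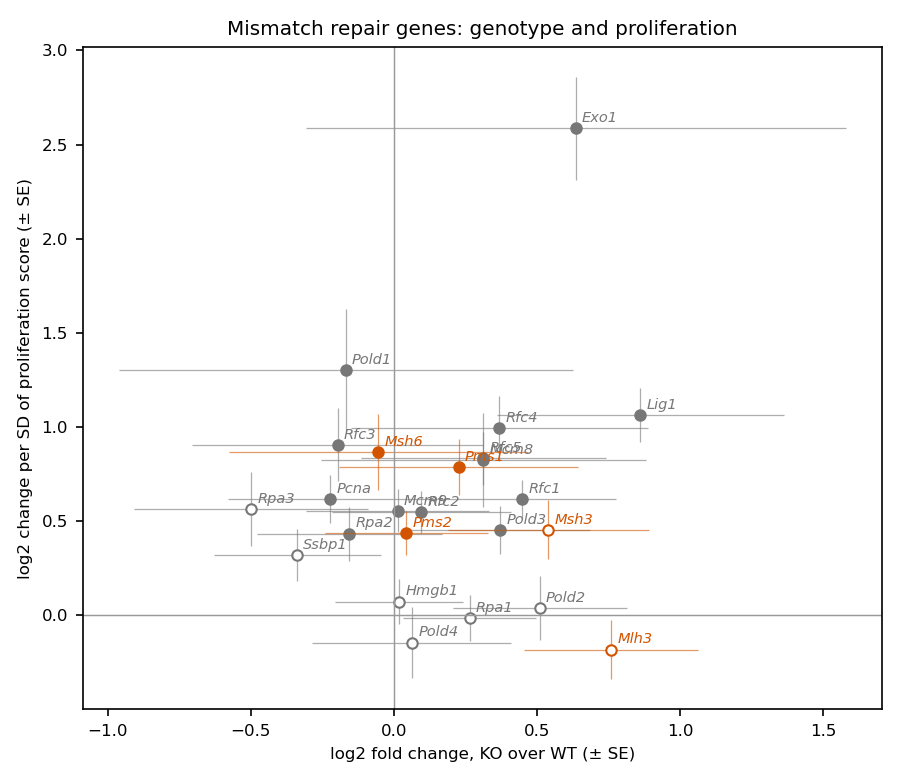
Log2 fold change KO over WT (x axis, ± SE) and log2 change per SD of the proliferation score (y axis, ± SE) of the 5 mismatch repair genes (orange) and 19 genes of the later steps (grey). Filled points passed an adjusted p of 0.05 for the slope, which 3 of the 5 and 13 of the 19 did, and *Mlh3* lies lowest, at -0.18.

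Of the related genes listed beside the pathway, *Mutyh*, the glycosylase that removes adenine paired with oxidized guanine, was higher in KO, at 6.28 ± 3.41 CPM against 1.95 ± 1.11 CPM (SD, n = 8 each), and was called by edgeR (1.63 ± 0.43 log2 units, adjusted p = 0.0431). It was the only one of 3 that passed, and in 20 of 33 alternatives it did not, with fold changes from 0.94 to 2.18 over all of them. With counts summed per mouse it was 1.42 (edgeR adjusted p = 0.604), and without Medusa 1.40 (0.0777). *Setd2*, whose histone mark recruits *Msh6* to chromatin, had a fold change of 0.31 ± 0.32 (adjusted p = 0.606) and rose with proliferation by 0.56 ± 0.11 per SD (adjusted p = 0.00423). *Mgmt*, which reverses alkylated guanine, had a fold change of 0.35 ± 0.42 (adjusted p = 0.656). The meiotic MutS gene *Msh5* was at 2.81 ± 1.67 CPM in KO and 2.85 ± 1.23 CPM in WT (0.07 ± 0.41, adjusted p = 0.941). Its partner *Msh4* averaged 0.372 CPM in KO and 0.628 CPM in WT, under the level of 3 counts in several libraries, and was not tested.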

How the data were processed

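RNA was measured by sequencing in 16 tumors, 8 KO and 8 WT by their genotype labels. The authors depleted ribosomal RNA, sequenced single-end reads, aligned them with Novoalign 2.08.01 (named in the submitters' processing notes) to mm10 and splice junctions of Ensembl models, allowing up to 50 alignments per read and keeping the best, and counted reads per gene with USeq. The deposited values are these raw counts, which the authors then compared with DESeq2 1.26.0. A read that fits several copies of a sequence can therefore add to more than one gene or to the wrong one. The strand setting is not given in the sources used here. All 16 columns of the table matched a labeled sample, and 0 other per-sample columns were present. No 2 libraries agreed within sampling noise (lowest chi-square per degree of freedom 40.1).

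Counts were tested with edgeR 4.0.16 (R 4.3.3): TMM, filterByExpr (minimum count 10, minimum total 15), glmQLFit and glmQLFTest on all genes, Benjamini-Hochberg adjustment, threshold 0.05, with genotype alone or genotype and the proliferation score. Log2 CPM used a prior count of 2. DESeq2 1.42.0 and limma 3.58.1 (voom, mouse as random effect) were alternatives. Single values were compared with exact two-sided permutation tests over 12870 splits of the tumors or 495 of the mice, whose smallest p-values are 0.000155 and 0.00202. Python 3.11.15 with scipy 1.17.1 was used for these. The fits were tested on simulated counts of 25054 genes. There edgeR found 98 of 100 genes changed by 2 on the log2 scale and 47 of 100 changed by 1, with 7 false calls. These numbers hold for the simulated settings only. In the tumors, the common biological coefficient of variation was 70.4%, and voom's correlation within a mouse was 0.762. The same coefficient, as a fraction, ran from 0.421 (*Pms2*) to 0.688 (*Msh6*) among the mismatch repair genes. The simulated shares are therefore not a measure of power for these genes. Counting floors (3 counts) cover counting error only, and the depth of Massa and Grilka limits all values there. p-values over tumors measure the spread between these tumors, in WT partly within a mouse. Those over mice measure the spread between the mice.

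Gene positions and exonic lengths come from GENCODE vM21 (GRCm38), where 24997 of 25054 identifiers were found, and are later than the authors' models. Promoter windows come from RefSeq (GRCm38.p6), where 5 of 5 genes matched, and 4 were used. The genes named are the 5 members, *Arid1a*, genes overlapping them or starting within 1000 bases on the opposite strand, pathway genes past the threshold or else the 3 with the smallest p, all related and meiotic genes listed, and for each member the 3 genes with the highest Pearson r. One gene that this rule names is not reported here. *Exo1*, *Pold1*, *Pold4*, *Rpa1* and *Hmgb1* were named after their slopes were seen, and the letters of the motifs were chosen after the windows were read. The members, the gene lists and the alternatives naming single tumors were chosen with earlier results of these data known. Alternatives covered the tool, the replicate unit, scaling, filter, covariates and leaving out tumors. Those without the 4 lowest scores, without the 5 tumors high in muscle, salivary or lung genes, without these and Zelda, without Massa, Grilka, Montana and Oregon, the slopes without Massa and Grilka or with other scalings, the slopes in the unit of all 16 scores, and the second length were added after seeing the data.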

Additional observations from a re-analysis of the deposited data

Results flagged for a closer look

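The level of *Msh6* in the KO tumor Massa stood apart from the other 7 KO tumors. Its gap to the next tumor was 0.616 of the whole KO range in log2 CPM, above Dixon's 95% critical value for 8 samples. Massa had 0 counts of *Msh6*, where 3 counts would be 6.69 CPM, and the next lowest tumor, Oregon, had 30 counts (8.39 CPM), so the size of the gap depends on the prior count of the log scale. Of 16 groups checked this was the only one, and chance flags about 1 in 20.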

How the results depend on the processing

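No paired analysis was possible because no mouse gave tumors to both genotypes. Between KO and WT, each gene was refitted under 33 alternatives. *Mlh3* stayed above 0 in all of them (0.27 to 0.93, adjusted p from 0.0640 to 0.780) and *Msh3* too (0.25 to 1.33, 0.0231 to 0.832), the latter past the threshold with Medusa and Ohio only (1.33). *Msh6* (main value -0.05, adjusted p from 0.0798 to 0.999) turned positive with counts summed per mouse (0.047), without N42 (0.10), without Massa and Grilka (0.084), without Montana and Oregon (0.24), with Medusa and Ohio only (0.94), without Massa, Grilka, Montana and Oregon (0.55), without the 5 tumors high in muscle, salivary or lung genes (0.59), without these and Zelda (0.66), and with the proliferation score (0.021) or ribosomal RNA (0.23) as covariate. Scaling to total counts turned *Pms1* (-0.13) and *Pms2* (-0.28), and *Pms2* was also below 0 with no filter (-0.014) and without N25 (-0.041). Adjusted p-values ran from 0.0716 to 0.997 for *Pms1* and from 0.130 to 0.992 for *Pms2*. *Pms2* over *Pms1* turned with mice (0.10), without N42 (0.19) and without Massa and Grilka (0.23), and *Msh6* over *Msh3* passed without Massa and Grilka (-1.02).

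Of the slopes, per SD of the scores in each fit, *Msh3* passed without Montana and Oregon (0.59), without Massa and Grilka (0.36) and with upper quartile (0.47) or total count (0.79) scaling. *Msh6* missed without Montana and Oregon (0.70) and, without the 4 lowest scores, *Msh6* (0.32), *Pms1* (0.26) and *Pms2* (0.25) all missed. The unit is smaller there, and in that of all 16 scores these were 0.62, 0.55 and 0.49, while without Montana and Oregon *Msh3* (0.64) passed and *Msh6* (0.77) missed. *Mlh3* turned with total counts (0.18) and without the 4 lowest scores (0.010, or 0.055 in the unit of all 16). The cause was not tested.

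Leaving out single tumors gave these ranges of fold changes: *Msh3* 0.31 to 0.68, *Msh6* -0.41 to 0.11, *Mlh3* 0.62 to 0.93, *Pms1* 0.03 to 0.46 and *Pms2* -0.12 to 0.14. The slopes ran from 0.30 to 0.52 for *Msh3*, 0.66 to 1.05 for *Msh6*, -0.23 to -0.13 for *Mlh3*, 0.67 to 0.85 for *Pms1* and 0.35 to 0.48 for *Pms2*. The ratios ran from -1.32 to -0.81 for *Msh6* over *Msh3*, -0.20 to 0.16 for *Pms2* over *Pms1* and -1.07 to -0.67 for *Pms2* over *Mlh3*.

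Over all genes, 618 passed between KO and WT (287 higher, 331 lower; with total count scaling 72 and 495, where the median of all genes was -0.33 in place of 0.10). DESeq2 called 2517, limma-voom 17 and edgeR with mice 10, without N42 8, without Montana and Oregon 372, without Massa, Grilka, Montana and Oregon 196, without the 5 tumors 1195, without these and Zelda 1987, with the score 983 and with ribosomal RNA 7. Leaving out single tumors gave 252 (without a shoulder tumor of N42) to 1348 (without Zelda). For the slope 2649 passed, 1637 without Montana and Oregon (1626 in the unit of all 16), 1615 with mice, 89 without the 4 lowest scores (93 in the unit of all 16), and 1643 (without Ohio) to 3100 (without N215) without single tumors.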
